A study of Mus musculus with 4 samples.

Results

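The guide strands of the miR-106b-25 and miR-106a-363 clusters were followed in mouse lung. They are 7 of the 750 microRNA (miRNA) assays of the deposited table, taken by their miRBase names: mmu-miR-106b, mmu-miR-93 and mmu-miR-25 from the first cluster, and mmu-miR-106a, mmu-miR-18b, mmu-miR-20b and mmu-miR-363 from the second. The 4 groups were adults (2 months old) after 72 h in 95% oxygen (hyperoxia), adults in room air, day 3 newborns after 72 h in 95% oxygen, and day 3 newborns in room air, with 1 library in each group. The newborns entered the exposure within hours of birth, dams were moved between both atmospheres to spare them injury, and right lungs were frozen after a rinse of the pulmonary artery. The labels used here name neither the strain nor the number of animals in a library. The study followed miRNA levels through lung development and in hyperoxia. Every group being 1 library, differences between libraries stand without a replicate check, and in whole lung fewer cells of a type and less RNA per cell cannot be told apart.

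Both clusters are paralogs of the miR-17 cluster, which promotes proliferation and is needed for normal lung development in mice. The miR-106b-25 cluster lies in an intron of Mcm7, a subunit of the helicase that opens DNA for replication, and is made together with that transcript. The miR-106a-363 cluster is a separate gene on the X chromosome. A miRNA guide finds its targets mainly through its seed, bases 2 to 8, so guides of different clusters with 1 seed share many targets; targets of the miR-17 seed include the cell cycle inhibitor p21, and targets of the miR-25 seed include Bim, which promotes apoptosis.

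In the RefSeq annotation of GRCm38.p6 the 3 hairpins of miR-106b-25 span chr5:138165321-138165818 on the minus strand, inside Mcm7 (chr5:138164583-138172111). The 6 hairpins of miR-106a-363 span chrX:52741693-52742567, also on the minus strand, next to the noncoding gene Kis2 (chrX:52742563-52744593). Those 6 include second copies of miR-19b and miR-92a, whose mature sequences are the same as those made from the miR-17 cluster, so their assays cannot be given to 1 locus and are not members. The mature guides, from RefSeq, are shown with the seed in capitals because the seed sorts them into families across the loci, and miR-17 and miR-18a are added as the nearest relatives of miR-106a and miR-18b.
mmu-miR-106b: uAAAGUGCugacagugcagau
mmu-miR-93: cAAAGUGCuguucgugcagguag
mmu-miR-106a: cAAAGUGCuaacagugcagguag
mmu-miR-20b: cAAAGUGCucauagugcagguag
mmu-miR-17: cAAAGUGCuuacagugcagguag
mmu-miR-18b: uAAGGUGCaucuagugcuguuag
mmu-miR-18a: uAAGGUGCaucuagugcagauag
mmu-miR-25: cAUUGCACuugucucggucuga
mmu-miR-363: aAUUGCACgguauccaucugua

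The seed AAAGUGC is shared by miR-106b and miR-93 of one locus and by miR-106a and miR-20b of the other, and AUUGCAC by miR-25 and miR-363, so both loci supply both families. Counted from the 5′ end, miR-106a differs from miR-17 by 1 base (A10U), miR-20b from miR-106a by 2 (C10A, U12C) and miR-18b from miR-18a by 2 (U18A, U20A). No primer sequence was at hand, and how far each assay tells such relatives apart was not tested.

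Quantitative PCR gave a threshold cycle (Ct) per assay, and a Ct of 35 or below counts as detected. Levels below are log2 values against snoRNA202, a small nucleolar RNA, of the same 384-well card, with higher values for more RNA. Of 750 assays, 468 were detected in adult hyperoxia, 468 in adult room air, 507 in neonatal hyperoxia and 477 in neonatal room air. All 7 members sit on the first card, and 6 were detected in all 4 libraries. miR-18b crossed no threshold in any library (Ct 40). Its assay is named for the human miRNA in the deposited table. So are those of miR-106b, miR-93, miR-25, miR-20b and miR-363, which were all detected. Whether the miR-18b assay reads the mouse sequence was not tested, so its Ct of 40 does not show that miR-18b was absent. Each assay amplifies at its own efficiency, so levels are compared between libraries and not between miRNAs. Of 10 lung markers 9 had an assay under the name looked for. All 9 were detected in every library, with a highest Ct of 18.7, 18.8, 18.7 and 19.3 in the order above. miR-126-3p had none under that name, while an assay named miR-126 was detected in each library. The liver miRNA miR-122 had a Ct of 28.3, 32.8, 27.6 and 36.0. All 3 erythroid markers were detected, with summed log2 levels of -5.38, -5.14, -5.11 and -4.48, as were all 4 leukocyte markers (-0.25, 0.11, -0.19 and -0.56) and all 5 muscle markers (-4.78, -4.21, -3.75 and -4.98). Of 3 brain markers, miR-124 crossed no threshold in neonatal room air. The part of these cells in the results was not tested.

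The adult level, set against the neonatal one, was lower for the X-linked guides than for those of the Mcm7 locus, in room air and in hyperoxia. The mean difference of the miR-106b-25 guides lay 1.49 log2 above that of the miR-106a-363 guides in room air and 0.88 above it in hyperoxia. The difference between the loci does not depend on the reference RNA, since all members share a card. The direction of each locus does depend on it: the X-linked median lay below 0 with snoRNA202 and above 0 when U6 or the median of each card was the reference.

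miR-106a, which shares the seed of miR-17, had log2 levels of -2.29 in adult hyperoxia, -1.89 in adult room air, -0.46 in neonatal hyperoxia and -0.81 in neonatal room air. Both adult libraries were below both neonatal ones. The adult level was 2.11 times lower than the neonatal level in room air (log2 difference -1.08) and 3.55 times lower in hyperoxia (-1.83). miR-20b, which carries the same seed, had levels of -5.82 in adult hyperoxia, -5.67 in adult room air, -4.27 in neonatal hyperoxia and -4.56 in neonatal room air. Again both adult libraries were the lower ones, by 2.15 times in room air (-1.10) and 2.92 times in hyperoxia (-1.55). miR-363, the cluster's member with the miR-25 seed, was detected late, at a Ct between 29.3 and 32.03, and had levels of -17.67 in adult hyperoxia, -18.59 in adult room air, -16.35 in neonatal hyperoxia and -15.28 in neonatal room air. Its age difference was the widest of the members in room air, at 9.93 times lower in the adult (-3.31), and was 2.51 times in hyperoxia (-1.33).

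**Figure D1:**
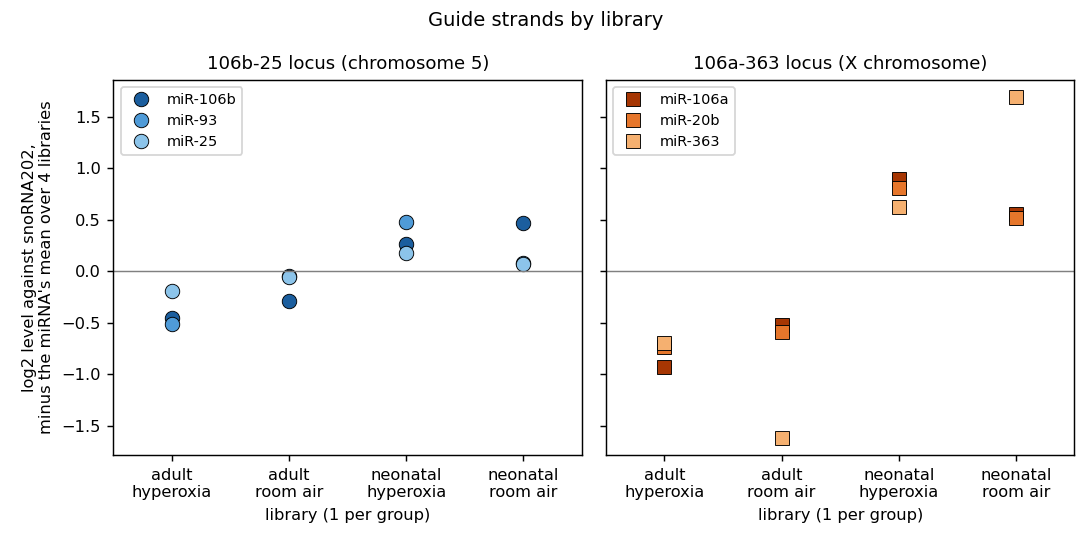
Log2 level against snoRNA202 of each detected guide, minus that guide's mean over the 4 libraries (vertical axis), by library (horizontal axis, 1 library per group), for miR-106b-25 (left, circles) and miR-106a-363 (right, squares). Both adult libraries lie below 0 and both neonatal libraries above it for every guide shown, with a wider spread on the right. There miR-363 has the highest and the lowest point. In room air the step is -0.126 for miR-93 and -0.125 for miR-25, below the technical SD of 0.65. The median over all assays was also lower in adults (-0.57 in room air, -0.98 in hyperoxia), and assays separating likewise were not counted.

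The guides of the Mcm7 locus varied less. miR-106b had levels of -5.38 in adult hyperoxia, -5.22 in adult room air, -4.66 in neonatal hyperoxia and -4.46 in neonatal room air. Its adult level was 1.69 times lower in room air (-0.76) and 1.65 times lower in hyperoxia (-0.72), nearly the same in both atmospheres. miR-93, its neighbour with the same seed, had levels of -5.90 in adult hyperoxia, -5.44 in adult room air, -4.92 in neonatal hyperoxia and -5.32 in neonatal room air. The adult was 1.09 times lower in room air (-0.13) and 1.98 times lower in hyperoxia (-0.99). miR-25 was the steadiest detected member, at -7.13 in adult hyperoxia, -7.00 in adult room air, -6.76 in neonatal hyperoxia and -6.87 in neonatal room air. Its whole range over the 4 libraries was 0.37 log2, against 3.31 for miR-363, which has the same seed.

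Counted over both loci, 3 of the 6 detected members passed 2-fold downwards with age in room air, as did 43% of the 435 assays compared, and 3 of 6 in hyperoxia, as did 49.3% of 450. The members' shares downwards are near the background, so the count itself is no result about them. The 3 were the X-linked guides, and their number depended on the reference: 1 in each atmosphere with the mean of snoRNA135 and snoRNA202, 1 in room air and 0 in hyperoxia with the library mean or the card median, and 0 in both with U6. The shares of all assays under those references were not counted. Upwards on the snoRNA202 scale, 0 of 6 members passed in either atmosphere, against 16.6% of the assays compared in room air and 10.9% in hyperoxia. In room air the members' median was -0.92, beside -0.57 over all assays, and in hyperoxia -1.16, beside -0.98. The first-card assays alone had medians of -0.39 and -0.95. The technical SD of 1 age difference on this scale, from 4 control RNAs, was 0.65 log2 in room air and 0.95 in hyperoxia.

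The age differences of the members lay apart by locus. In room air the 3 guides of miR-106b-25 lay between -0.76 and -0.13, with a mean of -0.34, and the 3 of miR-106a-363 between -3.31 and -1.08, with a mean of -1.83. The ranges did not overlap, but lay only 0.32 log2 apart, between miR-106b and miR-106a. The mean of the Mcm7 locus lay 1.49 log2 (2.82 times) above that of the X-linked locus. In hyperoxia the ranges were -0.99 to -0.37 for miR-106b-25 and -1.83 to -1.33 for miR-106a-363, again without overlap, 0.34 log2 apart. The means differed by 0.88 (1.83 times). Both gaps between ranges are below the technical SD of 1 age difference (0.65 in room air, 0.95 in hyperoxia). The room air and hyperoxia comparisons share no library. From 5 control RNAs read on both cards, the technical SD of such a difference between loci was 0.42 log2 in room air and 0.51 in hyperoxia, which leaves out variation between animals. Without the late miR-363 the difference was 0.75 in room air and 1.00 in hyperoxia. Guides of 1 locus come from 1 transcript and are not replicates, so this difference has no test.

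**Figure D2:**
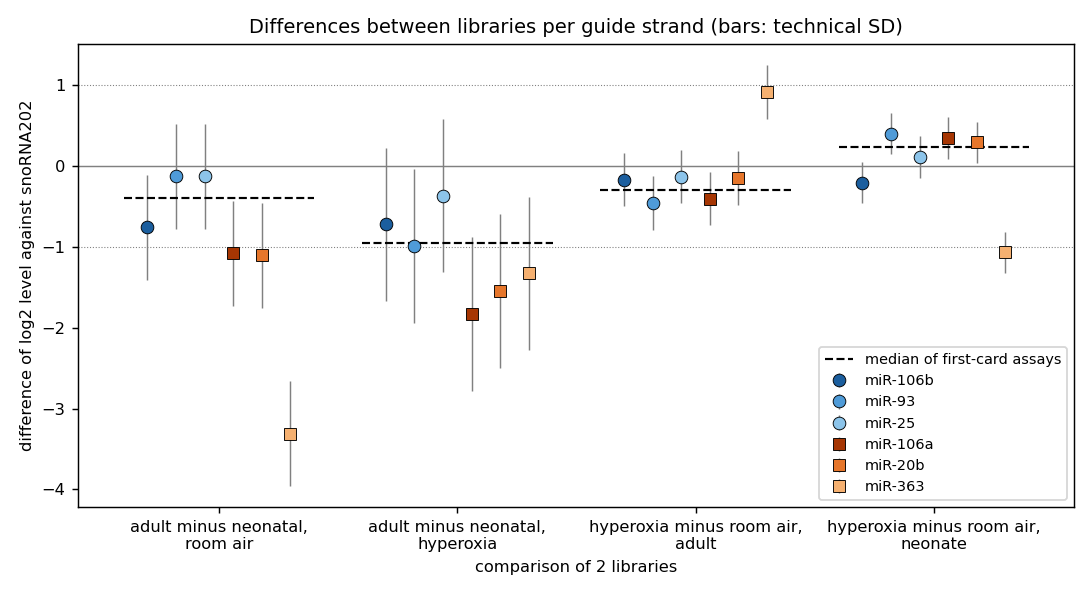
Difference of the log2 level against snoRNA202 between 2 libraries (vertical axis) for the 6 detected guides in each of 4 comparisons (horizontal axis). Circles are miR-106b-25, squares miR-106a-363, bars the technical SD from control RNAs, dashed lines the median of all first-card assays and dotted lines 2-fold. In both age comparisons the 3 squares lie below the 3 circles. In the oxygen comparisons miR-363 alone stands apart, at 0.92 in the adult and -1.07 in the neonate.

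Age and oxygen were also fitted as additive terms with limma, on the 426 assays with a detected level in each library. There 0 of 6 members passed a Benjamini-Hochberg adjusted p of 0.05 for age, while 30% of all assays were called lower and 5.63% higher. An unadjusted p under 0.05 was found for 3 of 6 members and for 218 of all 426 assays, so this count does not set the members apart. The 3 were the X-linked guides, whose fitted age differences were -2.32 ± 0.63 log2 for miR-363 (SE; limma, adjusted p = 0.0717), -1.45 ± 0.36 for miR-106a (limma, adjusted p = 0.0614) and -1.33 ± 0.32 for miR-20b (limma, adjusted p = 0.0587). The Mcm7 locus gave -0.74 ± 0.30 for miR-106b (limma, adjusted p = 0.143), -0.56 ± 0.38 for miR-93 (limma, adjusted p = 0.322) and -0.25 ± 0.30 for miR-25 (limma, adjusted p = 0.558). The X-linked values lie close to the threshold, and a robust estimate of the spread called all 3 of them lower (limma, adjusted p = 0.0355 to 0.0394), with 160 of the 426 assays called lower in that fit. With U6 as the reference 5 members were called higher, as were 196 of the 426 assays. In these 2 fits the members' calls moved together with those of the whole table. With the library mean they did not. There 99 assays were called higher and 77 lower, against 24 and 128 with snoRNA202, and 0 members were called either way.

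The choice of reference moved both loci together. With U6, the room air medians were 2.52 for miR-106b-25 and 1.54 for miR-106a-363. With the card median they were 1.02 and 0.04, and with the mean of snoRNA135 and snoRNA202 they were 0.30 and -0.68. U6 had a first-card Ct of 11.6 in adult hyperoxia and 11.9 in adult room air, against 9.29 in neonatal hyperoxia and 9.89 in neonatal room air. On the second card the same RNA read 8.89, 8.74, 9.07 and 9.27. The part of this gap between cards in the U6 result was not tested.

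**Figure D3:**
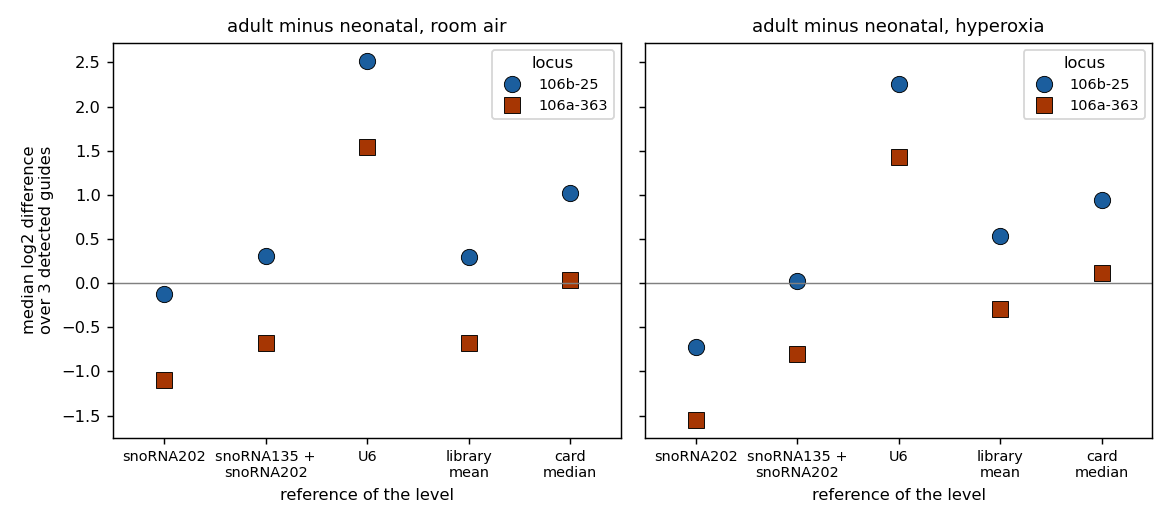
Median log2 difference, adult minus neonatal, over the 3 detected guides of each locus (vertical axis) under 5 references of the level (horizontal axis), in room air (left) and in hyperoxia (right). Circles are miR-106b-25 and squares miR-106a-363. The medians lie below 0 with snoRNA202 and at 2.52 and 1.54 with U6 in room air, while the circle stays above the square at a fixed distance.

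The passenger strands of the Mcm7 locus gave a second reading of the same precursors. A precursor hairpin is cut into a guide and a passenger arm, and the passenger, marked with a star, is mostly degraded. The hairpins of miR-106b and miR-93 are shown with both mature arms in capitals, guide first, since both arms of each were measured.
Mir106b, chr5:138165737-138165818: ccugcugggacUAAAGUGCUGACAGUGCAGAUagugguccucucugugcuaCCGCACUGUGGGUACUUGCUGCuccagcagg
Mir93, chr5:138165523-138165610: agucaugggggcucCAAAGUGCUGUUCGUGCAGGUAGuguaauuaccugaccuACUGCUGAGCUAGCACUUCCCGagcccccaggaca

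miR-106b* had log2 levels of -10.33 in adult hyperoxia, -10.14 in adult room air, -8.24 in neonatal hyperoxia and -7.84 in neonatal room air. Both adult libraries were about 2 log2 units below the neonatal ones. It fell with age (-2.20 ± 0.30 log2, SE; limma, adjusted p = 0.0223), and was called lower under 5 of 6 references. Under the library mean it was at -0.77 (limma, adjusted p = 0.119). miR-93* had levels of -6.03 in adult hyperoxia, -5.78 in adult room air, -4.53 in neonatal hyperoxia and -4.37 in neonatal room air. It fell too (-1.46 ± 0.30, SE; limma, adjusted p = 0.0450), but was not called with U6, with the library mean or with each card centred, where it lay at -0.57, -0.03 and -0.51, nor when any Ct below 40 was kept (limma, adjusted p = 0.0627). Neither guide passed that test.

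The age difference of miR-106b* minus that of miR-106b was -1.55 log2 in room air and -1.37 in hyperoxia on the snoRNA202 scale. For miR-93* and miR-93 these values were -1.29 and -0.52. Under all 6 references tried they stayed below 0, from -3.07 to -0.52 in room air and -3.69 to -1.22 in hyperoxia for miR-106b, and from -2.81 to -0.26 and -2.83 to -0.37 for miR-93. The passengers sit on the second card. Its assays had a median of -0.97 in room air, against -0.39 on the first card, and of -1.04 in hyperoxia, against -0.95, so arm and card cannot be told apart. Assays with the miRBase names miR-20b* and, for rat, miR-20b-3p, miR-25* and miR-363* (the last with a human assay name) crossed no threshold in any library.

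**Figure D4:**
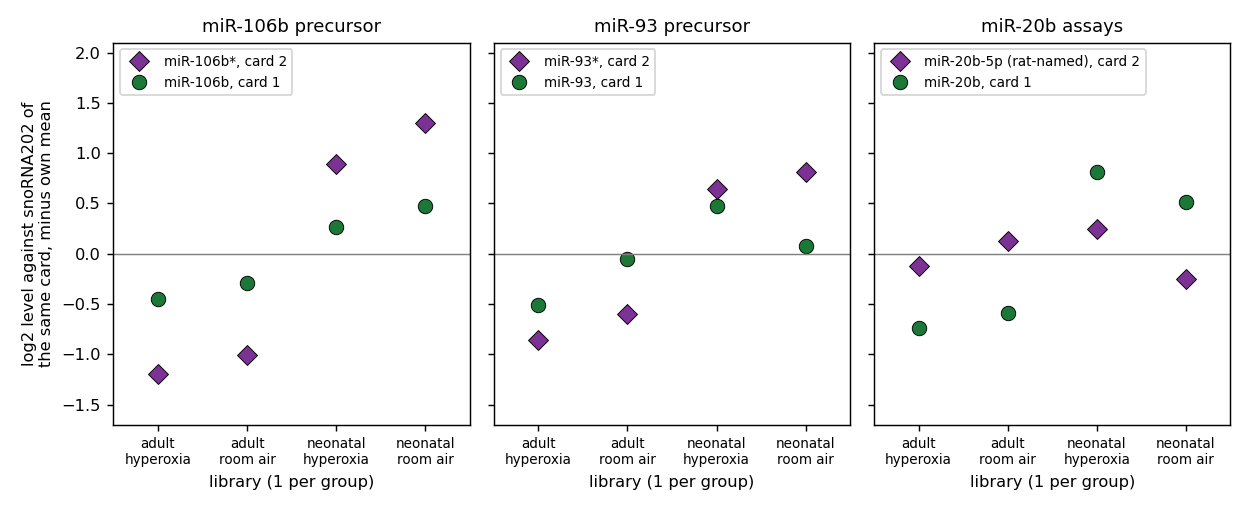
Log2 level against the snoRNA202 of the same card, minus each assay's mean over the 4 libraries (vertical axis), by library (horizontal axis). The left and middle panels show passenger (diamonds) and guide (circles) of miR-106b and miR-93. The right panel shows the miR-20b assays, the rat-named one (diamonds) and the member (circles). The passengers spread wider between ages than their guides, and the rat-named assay lacks the age step of the member.

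Near-identical assays bear on 2 of the X-linked guides. miR-106a and miR-17, which differ by 1 base, were almost the same in every library: the Ct of miR-106a was 0.01 above that of miR-17 in adult hyperoxia, and 0.13, 0.23 and 0.08 below it in adult room air, neonatal hyperoxia and neonatal room air. The age differences of miR-17 were -1.13 in room air and -1.58 in hyperoxia, beside -1.08 and -1.83 for miR-106a. Whether the miR-106a assay reads miR-17 was not tested. Leaving out miR-106a, the loci differed by 1.87 in room air and 0.74 in hyperoxia.

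A second assay, named for rat miR-20b-5p and placed on the second card, did not repeat the age difference of miR-20b. Its levels were -8.31 in adult hyperoxia, -8.05 in adult room air, -7.94 in neonatal hyperoxia and -8.44 in neonatal room air. They overlapped between ages, with an adult minus neonatal difference of 0.38 in room air and -0.37 in hyperoxia, and a fitted age difference of 0.01 ± 0.36 (SE; limma, adjusted p = 0.989). The Ct of this assay was between 2.61 and 5.13 cycles later than that of the member assay. The member assay has a mouse miRBase name and an assay name for human miR-20b. The age difference of miR-20b therefore rests on 1 of 2 assays.

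The guides of the miR-17 cluster were set beside both loci by medians and by means, which did not give the same order. Its 6 guides had medians of -1.10 (room air) and -1.37 (hyperoxia), beside -1.10 and -1.55 for miR-106a-363 and -0.13 and -0.72 for miR-106b-25. By means, the miR-17 cluster was at -0.84 in room air, between -1.83 for miR-106a-363 and -0.34 for miR-106b-25, and at -1.35 in hyperoxia, between -1.57 and -0.69. In the limma fit 1 of the 6, miR-18a, fell with age (-1.64 ± 0.30 log2, adjusted p = 0.0380). Of other carriers of the miR-25 seed, miR-32 also fell (-1.46 ± 0.32; limma, adjusted p = 0.0480), miR-367 was not detected in all libraries and miR-92b had no assay under that name. Both calls end with the mean of snoRNA135 and snoRNA202, with the library mean, with each card centred and when any Ct below 40 is kept (that of miR-32 also on the deposited values), and turn to higher in adults with U6. miR-92a, encoded in the miR-17 and miR-106a-363 clusters, was at -1.06 in room air and -1.44 in hyperoxia. miR-19b, encoded in the same 2 clusters, was at 0.43 and -0.72.

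Among 386 other assays that crossed by cycle 32 in each library, the profile nearest to the mean of the X-linked guides was that of miR-18a, with a root mean square distance of 0.13 log2 over the 4 libraries. After it came miR-449c, miR-182, rat-named miR-324-3p and miR-1839-3p, at 0.15 to 0.16. The other guides of the miR-17 cluster were further away, at ranks 33 (miR-17), 40 (miR-92a), 54 (miR-20a), 86 (miR-19a) and 191 (miR-19b). Nearest to the mean of the Mcm7 locus were rat-named miR-340-3p, miR-34c*, miR-744*, miR-425 and rat-named miR-200c, at 0.05 to 0.09. With 4 libraries each such likeness is a description.

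On the snoRNA202 scale most members differed little between atmospheres. In the adult, 5 of 6 guides were between -0.46 and -0.13 log2 after hyperoxia and 0 of 6 differed 2-fold, where 8.26% of 448 assays were 2-fold lower and 3.79% higher. miR-106a was at -0.40, miR-20b at -0.15, miR-106b at -0.17, miR-93 at -0.46 and miR-25 at -0.13, beside a median of -0.29 over the first-card assays and a technical SD of 0.33. miR-363 was 1.89 times higher (0.92), at a Ct of 30.5 after hyperoxia and 32.03 in room air. Both statements depended on the reference: miR-363 passed 2-fold upwards with U6, the mean of snoRNA135 and snoRNA202, the card median and the library mean (1.17 to 1.59), and with the library mean the other 5 guides lay between 0.21 and 0.54.

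In the neonate 5 of 6 guides were between -0.21 and 0.40 after hyperoxia, with a technical SD of 0.26 and a first-card median of 0.24. miR-93 was at 0.40, miR-106a at 0.35, miR-20b at 0.30, miR-25 at 0.11 and miR-106b at -0.21. miR-363 was at -1.07, the 1 member of 6 that was 2-fold lower, where 8.53% of 469 assays were and 13.6% were 2-fold higher. For oxygen over both ages the limma fit called 0 of 426 assays (13 at an unadjusted p under 0.05, 0 of them members). A trended and a robust estimate of the spread also gave 0 calls. The fitted oxygen differences of the members lay between -0.19 for miR-106b and 0.07 for miR-20b. This term averages both ages, so effects of opposite sign cancel in it. Thus miR-363, at 0.92 in the adult and -1.07 in the neonate, was fitted at -0.07. For oxygen the ranges of the loci overlapped in both ages, and their means (miR-106b-25 minus miR-106a-363) differed by -0.38 in the adult and 0.24 in the neonate, with technical SDs of 0.25 and 0.14. Without miR-363 these differences were 0.02 and -0.22.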

How the data were processed

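Cards carrying 750 miRNA assays and 18 control wells (2 cards of 384 wells) were run for each of 4 lung libraries, grouped by their titles. RNA was converted with Megaplex primers, preamplified and read by TaqMan PCR, per the labels' protocols. Per the file headers, the authors deposited Ct values and Ct minus that of snoRNA202, both on a log2 scale where less means more RNA. A Ct of 40 marks a well with no crossing. Software and threshold settings were not at hand. There is no read depth, and Ct takes its place.

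Levels were recomputed as minus the gap between a well's Ct and the snoRNA202 Ct of its own card, because the deposited second-card values of the adult room air library use the first card's snoRNA202 (-0.225 cycles apart). Members sit on the first card and are not touched by this. One log2 unit is 2-fold if amplification is perfect. The technical SD of a difference is the root mean square gap between cards over 4 control RNAs, divided by the square root of 2. For the difference between loci the mean gap was first removed, over 5 RNAs, and the SD scaled to means of 3 guides.

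The limma fit (version 3.58.1, R 4.3.3; lmFit and eBayes) took 426 assays, adjusted by Benjamini-Hochberg, and was tested on simulated data. Each assay leaves 1 residual degree of freedom, to which eBayes added 2.16, and the oxygen effect is taken as equal in adults and neonates. That residual is the difference between the adult and neonatal oxygen effects of the assay. SEs and p-values thus measure departure from additivity, with spread shared across assays, and not variation between replicates. The libraries differ in age or exposure, so no animal is in more than 1 of them. Variation between animals thus enters this residual, and cannot be told apart there from technical variation or from a real difference in oxygen effect. All members, the other assays of both loci, their seed relatives and the 5 nearest profiles per locus are named. Members and lists were chosen with earlier results of these data known. Alternatives were other references, Ct limits, fold limits and spread estimates.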

Additional observations from a re-analysis of the deposited data

Results flagged for a closer look

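On the snoRNA202 scale, 5 guides and the rat-named miR-20b assay had oxygen effects of opposite sign in the 2 ages, and none of these differences was tested, since 1 library per group leaves nothing to test them with. The adult minus neonatal oxygen effect was 1.99 log2 for miR-363, which was 0.92 higher after hyperoxia in the adult and at -1.07 in the neonate, at a Ct of 29.3 to 32.03. It was -0.86 for miR-93 (-0.46 in the adult, 0.40 in the neonate), -0.75 for miR-106a (-0.40 and 0.35), -0.44 for miR-20b (-0.15 and 0.30) and -0.24 for miR-25 (-0.13 and 0.11). For miR-363 the signs were opposite under all 5 references shown for the loci. For the other 4 guides they were not: miR-20b was above 0 in both ages with U6 (0.0985 in the adult, 0.212 in the neonate), the mean of snoRNA135 and snoRNA202, the library mean and the card median, miR-25 with U6 (0.1155 and 0.027) and the mean of the snoRNAs, and miR-93 (0.208 and 0.235) and miR-106a (0.264 and 0.179) with the library mean. The median of all first-card assays also changed sign, at -0.29 in the adult and 0.24 in the neonate. How many of all assays had opposite signs was not counted, so the count of guides is no result about them. The rat-named miR-20b assay was at -0.25 and 0.50, a difference of -0.75. Its age difference of -0.37 in hyperoxia and 0.38 in room air is the same contrast of the 4 values written the other way, with the same -0.75, and is not a second observation.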

How the results depend on the processing

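No paired analysis was possible because each group has 1 library, and for the same reason no replicate could be left out. A shift in a median or a difference was set against the technical SD. The difference between loci was the same with every reference, by construction. In room air it was 0.75 with a Ct limit of 32, which drops miR-363, and likewise when miR-363 was left out, and 0.98 with locus medians; over all alternatives it ranged from 0.75 to 1.87, and in hyperoxia from 0.74 to 1.00. For oxygen it was 0.0232 in the adult with a Ct limit of 32 or without miR-363, -0.019 with medians and -0.64 without miR-106a; in the neonate it was -0.19 with medians, -0.22 without miR-363 and 0.49 without miR-106a. Leaving out members was chosen after seeing the data, and without miR-106a the X-linked median was -2.21 for age in room air, 0.39 for oxygen in the adult and -0.39 in the neonate.

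With U6, the age medians of miR-106b-25 and miR-106a-363 were 2.52 and 1.54 in room air and 2.26 and 1.43 in hyperoxia. With each card centred they were 1.02 and 0.0385, and 0.94 and 0.12. With the library mean they were 0.54 and -0.29 in hyperoxia, and the oxygen medians in the adult were 0.50 and 0.52. Members 2-fold higher with age numbered 5 (room air) and 6 (hyperoxia) with U6, 2 and 1 with each card centred, and 0 and 0 otherwise. Members 2-fold lower numbered 0 and 0 with U6, 1 and 1 with the mean of snoRNA135 and snoRNA202, 1 and 0 with the library mean or each card centred, and 5 in hyperoxia at 1.5-fold. For oxygen in the adult, 1 member (miR-363) passed as higher under 4 references (U6, snoRNA135 with snoRNA202, library mean, card median) and at 1.5-fold. The shares of all assays passing under these references and at 1.5-fold were not counted, so these numbers do not set the members apart. First-card U6 itself, adult minus neonatal against snoRNA202, lay at -2.65 in room air and -2.98 in hyperoxia. Taking it as the reference moves every first-card assay alike. Single members at least 2-fold lower turned above 0 with U6: miR-20b to 1.54 in room air and 1.43 in hyperoxia, miR-106a to 1.57 and 1.15, and miR-363 to 1.65 in hyperoxia. With each card centred miR-20b turned to 0.0385 and 0.12, miR-106a to 0.0635 in room air and miR-363 to 0.34 in hyperoxia.

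In the limma fit for age, all assays called higher and lower numbered 24 and 128; they were 196 and 71 with U6, 99 and 77 with the library mean, 136 and 84 with each card centred, and the higher ones 50 with snoRNA135 and snoRNA202 and 38 with a trend. Members called higher were 5 with U6, at 2.07 (miR-106b), 2.26 (miR-93), 2.57 (miR-25), 1.36 (miR-106a) and 1.49 (miR-20b), and 1 with each card centred (miR-25, 1.16). Members called lower were 2 with a Ct limit of 32, 2 with a trend and 3 with robust eBayes. miR-18a and miR-32 turned to 1.17 and 1.35 with U6. The cause of these shifts was not tested. Late assays such as miR-363 have no repeat measurement, so their precision is unknown.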
